A study of Mus musculus with 3 samples.

Results

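The claudins and connexins are the membrane proteins that build tight junctions and gap junctions. Their genes were followed in wounds on the backs of C57Bl/6 mice, an inbred strain, that were 6 weeks old. A gene was included when its symbol in the platform annotation is Cldn, or Gja, Gjb, Gjc, Gjd or Gje, followed by digits alone. The rule gave 39 of 19938 named genes, namely 23 claudins and 16 connexins. The mice carried a large excision through the full thickness of the back skin, and the healing epidermis and dermis were taken on day 10, day 12 or day 14. Hair follicles and skin outside the wound were avoided at dissection, per the labels. The labels name no genetic change or drug, and no unwounded skin was analysed here. For every day the tissue of 3 mice was pooled and measured on 1 one-colour array, so each gene has 1 value per day. No replicate error could be estimated, no test was made, and every difference below compares single pools. Differences are given for the first interval, which sets day 12 against day 10, for the second, which sets day 14 against day 12, and for the whole span, which sets day 14 against day 10.

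In a tight junction, claudins of neighbouring cells meet outside the membrane and seal the space between the cells, and some claudins form channels for ions or water in that seal. In the epidermis the seal lies in the granular layer, just below the cornified layers. Connexins join in rings of subunits to form a pore, and pores of adjoining cells dock into a gap junction through which ions and small molecules pass. Skin uses both kinds of junction, and connexins of keratinocytes are known to change in abundance and position at wound edges. In bulk tissue, fewer cells of a type and less RNA per cell cannot be told apart.

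Between day 10 and day 14, Cldn1 was the 1 claudin of 23 that differed by at least 1.5-fold, and 4 of 16 connexins did, in both directions. Of all named genes, 3.11% were higher and 2.98% lower by that much. The difference between the families was not tested. Cldn1 was 1.92-fold higher on day 14. Among the connexins, Gjc3 was 2.67-fold higher and Gjb5 just short of 2-fold higher, and Gja4 was 2.08-fold and Gjb6 1.64-fold lower. These 5 genes were the members that differed by at least 1.5-fold between day 14 and day 10. Ranked by that difference among all 19938 named genes, Gjc3 stood at place 106, Gjb5 at 251 and Cldn1 at 283 from the top. Gja4 stood at place 80 and Gjb6 at 356 from the bottom.

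The upstream sequences of these 5 genes are shown because the genes carry the differences described below. Each runs 5′ to 3′ on the strand of the gene, from 250 bases before to 50 bases after the start given by RefSeq on the GRCm38.p6 build. Capitals mark matches, on either strand, to TATAAA of the classical core promoter box, to the box with the letters CCAAT, to GGGCGG of the box bound by Sp1, to TGANTCA of the AP-1 motif, and to ACAAAG, a core shared by SOX and TCF factors. No match of one motif overlapped a match of another in these sequences.
Cldn1, chr16:26371790-26372089, minus strand: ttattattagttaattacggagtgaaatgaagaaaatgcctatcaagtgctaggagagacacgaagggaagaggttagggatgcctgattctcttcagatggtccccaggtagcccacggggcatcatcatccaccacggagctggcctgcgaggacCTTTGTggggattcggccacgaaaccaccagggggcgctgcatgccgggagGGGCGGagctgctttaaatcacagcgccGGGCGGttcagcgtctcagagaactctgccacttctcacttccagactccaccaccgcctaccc
Gja4, chr4:127313990-127314289, minus strand: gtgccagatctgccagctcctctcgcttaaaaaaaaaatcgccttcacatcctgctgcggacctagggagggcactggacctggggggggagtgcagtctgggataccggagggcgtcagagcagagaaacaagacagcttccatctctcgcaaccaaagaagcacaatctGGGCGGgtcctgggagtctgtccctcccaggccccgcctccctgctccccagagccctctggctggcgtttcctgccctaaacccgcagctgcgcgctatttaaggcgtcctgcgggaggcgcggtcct
Gjb5, chr4:127358115-127358414, minus strand: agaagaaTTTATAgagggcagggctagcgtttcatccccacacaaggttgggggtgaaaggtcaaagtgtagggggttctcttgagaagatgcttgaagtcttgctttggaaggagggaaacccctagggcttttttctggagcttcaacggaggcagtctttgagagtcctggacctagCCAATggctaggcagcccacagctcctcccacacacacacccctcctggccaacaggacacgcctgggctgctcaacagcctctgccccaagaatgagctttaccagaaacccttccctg
Gjb6, chr14:57133562-57133861, minus strand: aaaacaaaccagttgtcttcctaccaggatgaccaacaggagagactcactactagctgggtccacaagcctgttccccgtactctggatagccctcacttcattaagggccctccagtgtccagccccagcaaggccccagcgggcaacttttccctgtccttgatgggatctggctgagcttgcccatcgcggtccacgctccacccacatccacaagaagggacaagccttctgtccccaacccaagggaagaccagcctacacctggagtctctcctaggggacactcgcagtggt
Gjc3, chr5:137963049-137963348, minus strand: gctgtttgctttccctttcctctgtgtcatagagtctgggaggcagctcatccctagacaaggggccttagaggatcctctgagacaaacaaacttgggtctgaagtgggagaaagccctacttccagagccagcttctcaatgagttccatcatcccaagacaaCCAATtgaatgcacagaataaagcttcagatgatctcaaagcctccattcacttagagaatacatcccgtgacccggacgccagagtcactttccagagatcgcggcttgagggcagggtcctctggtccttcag

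The letters GGGCGG were found 2 times upstream of Cldn1 and 1 time upstream of Gja4, and 35.7% of the 32851 promoters in the RefSeq table held them. The CCAAT box was found upstream of Gjb5 and of Gjc3, against 37.4% of all promoters. A TATAAA match lay at position −243 from the start of Gjb5, in reverse orientation and far from the usual place of that box. All promoters held TATAAA in 13.6% of cases. Cldn1 had 1 match to ACAAAG, which 18.7% of promoters hold. TGANTCA, found in 7.81% of promoters, was in none of these 5 windows, and the Gjb6 window held none of the searched letters, which says nothing beyond that window. Of the 39 genes, 31 had a promoter in the table, with 43 promoters in all. The CCAAT box and GGGCGG were each in 44.2% of these. The other shares were 11.6% for TATAAA, 6.98% for TGANTCA and 16.3% for ACAAAG. GC content of the 5 windows lay between 50.7% for Gjc3 and 62% for Gja4, beside a median of 52.7% over all promoters.

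Levels of the arrays as a whole bear on how far these numbers can be read. A gene was said to reach the median level when its highest log2 value over the 3 days was at least 8.36, the median of that quantity over all named genes. By this measure 5 of 23 claudins and 9 of 16 connexins reached the level. Whether the other 25 genes stood above background is unknown, since the table gives no detection calls. A technical yardstick came from 469 genes with a pair of probe sets each and a mean at or above the median over named genes. The gap between the differences given by both probe sets of a gene had a 95th percentile of 0.35 over the first interval, 0.24 over the second interval and 0.41 over the whole span. This gap covers spread within arrays, was not measured on genes of low level, and says nothing of spread between animals. Of the 39 genes, 38 were measured by 1 probe set. The tissue carried the markers its label implies, with 7 of 7 basal epidermis, 6 of 6 differentiated epidermis and 6 of 6 fibroblast genes reaching the level. The corresponding counts were 8 of 8 for endothelium and 0 of 4 for melanocytes.

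Among the tight junction genes, Cldn1 was the member with the largest difference between day 14 and day 10. Cldn1 encodes the claudin without which newborn mice lose water across the epidermis and die. Its log2 value stood at 11.32 on day 10, 12.07 on day 12 and 12.26 on day 14. Most of the difference lay in the first interval, at 0.75, and the second added 0.19. The first value exceeded the 95th percentile of the probe set gap and the other did not. Cldn1 was the 1 claudin past 1.5-fold over the whole span, beside 3.11% of all named genes that were higher by that much. No claudin passed 2-fold in either direction in any pair of days. Over the whole span the share of all named genes that far apart was 1.25% higher and 0.512% lower. The corresponding shares were 0.787% and 0.130% over the first interval, and 0.0552% and 0.196% over the second interval.

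**Figure D1:**
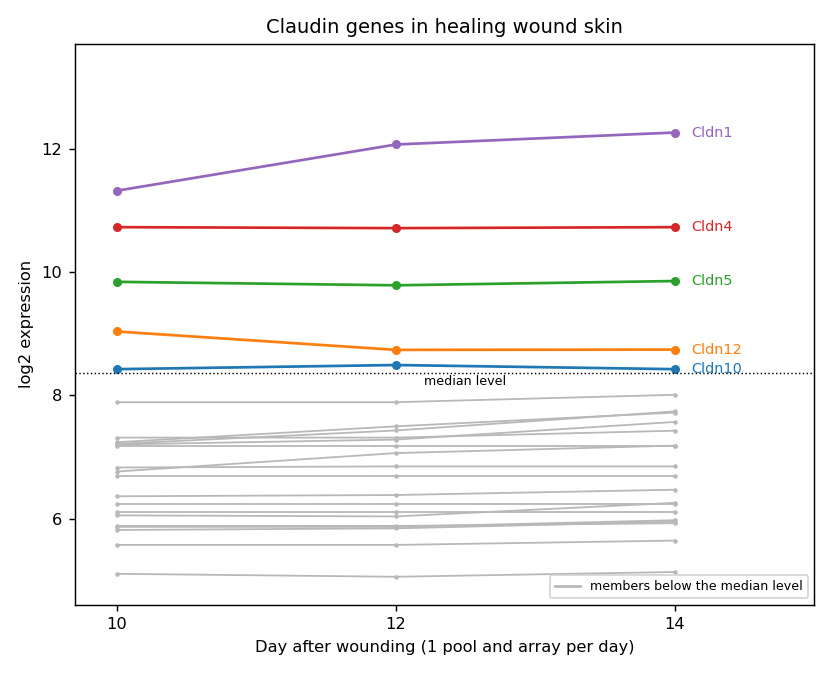
Log2 expression (vertical axis) of the 23 claudin genes on day 10, 12 and 14 after wounding (horizontal axis), 1 pool of 3 mice per point. Coloured lines are the 5 genes reaching the median level of 8.36 (dotted line), of which Cldn1 slopes upward from 11.32 on day 10, and grey lines are the 18 genes below it.

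The remaining claudins that reached the level differed little between days. Cldn4, a barrier claudin of the granular layer and of many simple epithelia, was at 10.73 on day 10, 10.71 on day 12 and 10.73 on day 14. Cldn5, the main claudin of endothelial cells, was at 9.84, 9.78 and 9.85 on the same days. Both genes thus stayed within 0.07 log2 units over the 3 days. Cldn12, a claudin that lacks the usual binding site for scaffold proteins at its end, was at 9.03 on day 10, 8.74 on day 12 and 8.74 on day 14. Its difference of −0.29 over the whole span was smaller in size than the 95th percentile of the probe set gap. Cldn10, which forms ion channels in kidney and gland epithelia, was at 8.42, 8.49 and 8.42. Its value is the mean of a pair of probe sets, which differed by 0.08 and 0.06 over the first interval and were each equal on day 14 and day 10.

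Cldn5 can be set beside other endothelial genes of the same arrays. All 8 endothelial markers were lower over the whole span, with a median difference of −0.50, and all 8 were lower on day 12 as well. Their summed linear signal stood at 16735 on day 10, 13682 on day 12 and 12377 on day 14. Cldn5 itself differed by 0.01 over the whole span. The endothelial markers lay between −0.70 for Esam, an adhesion molecule of endothelial tight junctions, and −0.26 for Pecam1. The part of endothelial cell number in either value was not tested.

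The 18 claudins below the level had values between 5.05 and 8.01. None of them differed by 1.5-fold between any days. Over the whole span, 14 of the 18 were higher, 0 were lower and 4 had equal values, with a median difference of 0.11. Small positive differences were also common among all 9969 named genes below the level, of which 40.1% were higher, 17.5% lower and 42.4% equal, with a median of 0.00. Over all 23 claudins the median difference was 0.07 over the whole span, with 16 higher, 1 lower and 6 equal. That median was 0.00 over all named genes, of which 34.9% were higher and 35.6% lower. Over the second interval the claudin median was 0.08, with 17 higher and 1 lower, beside 32.7% and 30.8% of all named genes. Of those below the level, 40.5% were higher and 11.2% lower. These claudin counts were 22 and 1 with median centring, 21 and 2 with quantile normalization and 17 and 6 with cyclic loess. Over the first interval the claudin median was 0.00, with 9 higher and 5 lower, beside 25.5% and 34.5% of all named genes. The claudin balance of the first interval turned under other scalings. It was 9 higher and 14 lower with median centring, and 8 higher and 15 lower with quantile normalization. Cyclic loess gave 12 higher and 11 lower. No measure of spread was available for these medians, since the 95th percentile of the probe set gap describes single genes of higher level.

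Within the low group, 3 of 18 genes exceeded that percentile over the whole span, beside 3.86% of all named genes below the level. They are named here after their values were seen. Cldn11, the claudin of myelin and of Sertoli cells, was at 7.21 on day 10, 7.43 on day 12 and 7.74 on day 14. Cldn23 was at 7.24, 7.50 and 7.72. Cldn8, known from the kidney collecting duct, was at 6.76, 7.06 and 7.18. Each was higher on each later day, and the differences over the whole span were 0.53, 0.48 and 0.42. Over the second interval, Cldn11 and Cldn19 were beyond the 95th percentile of 0.24, with 0.31 and 0.29, as were 4.98% of all named genes below the level. Cldn19, a claudin of Schwann cells and kidney, was at 7.20 on day 10, 7.28 on day 12 and 7.57 on day 14, below the level on each day.

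The claudins were also grouped by what they are known to do in a junction. Of 11 barrier-forming claudins, 9 were higher on day 14 than on day 10 and 0 were lower, with a median of 0.11. Of 5 channel-forming claudins, 3 were higher and 0 were lower, with a median of 0.04. The 7 others had 4 higher, 1 lower and a median of 0.03. In each group most genes stood below the level, where 40.1% of all named genes were higher and 17.5% lower over the whole span. The groups were small, and the difference between them was not tested. Values were exactly equal on all 3 days for Cldn9, Cldn15, Cldn20 and Cldn22. Among the connexins this held for Gja6 and Gjb1, and among all named genes for 25.7%. Equal values can arise when few arrays are summarised by a median polish, as in RMA, and they are no precise measurement of no difference.

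Claudins depend on other proteins of the junction, and 29 such genes were measured. Of these tight junction partners, 21 were higher and 5 lower over the whole span, with a median difference of 0.11, beside 34.9% of all named genes higher and 35.6% lower. Tjp3, which encodes the scaffold protein ZO-3 of epithelial junctions, was at 8.16 on day 10, 8.72 on day 12 and 9.30 on day 14. It was 2.20-fold higher on day 14 than on day 10 and was the 1 partner past 2-fold. Ocln, encoding occludin, which spans the membrane beside the claudins, was at 6.79, 7.18 and 7.68, below the level on each day. Cgn, encoding the cytoplasmic plaque protein cingulin, was at 7.86, 8.17 and 8.50. These 3 genes were higher on each later day, as Cldn1 was. Tjp1, encoding the scaffold protein ZO-1, differed by 0.04, so that the partners did not share one pattern.

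Markers of the differentiated epidermis differed in the same direction as Cldn1. All 6 of these markers were higher over the whole span, with a median difference of 0.95, and their summed linear signal stood at 29311 on day 10, 38835 on day 12 and 43132 on day 14. All 7 basal epidermis markers were higher too, with a median of 0.05, by unlike amounts, from 0.02 for Itgb4 to 1.94 for Krt15. All 4 markers of wound-edge keratinocytes were lower, with a median of −0.08. The 4 markers of dendritic and Langerhans cells, of which the Langerhans cells lie in the epidermis, were all higher as well, with a median of 1.05 and sums of 4486, 8078 and 8473. Among them were Epcam, an adhesion molecule that other epithelial cells also express, with a difference of 1.56, and Itgax, with 1.37. Cd207, which encodes langerin and defines Langerhans cells, was at 6.11, 6.56 and 6.78, below the level on each day. What part epidermal and immune cell content had in the Cldn1 and Tjp3 values was not tested.

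Among the gap junction genes, 1 of 16 passed 2-fold upward and 1 passed it downward over the whole span, beside 1.25% and 0.512% of all named genes. At 1.5-fold these counts were 2 and 2, beside 3.11% and 2.98%. Over the first interval, 1 connexin passed 2-fold upward, beside 0.787% of all named genes, and 0 passed it downward. Over the second interval no connexin reached 2-fold. At 1.5-fold, 1 connexin was higher over the first interval, beside 2.33% of named genes, and 1 was lower in each of both intervals, beside 0.958% of named genes in the first and 0.712% in the second. The median difference over the 16 genes was 0.00 over each interval and 0.04 over the whole span. It turned with the level, since the 9 connexins that reached the level had medians of −0.04 over the first interval, −0.11 over the second and −0.25 over the whole span. All named genes that reached the level had a median of −0.02 over the whole span. The connexins thus lay on both sides of 0 in every pair of days.

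**Figure D2:**
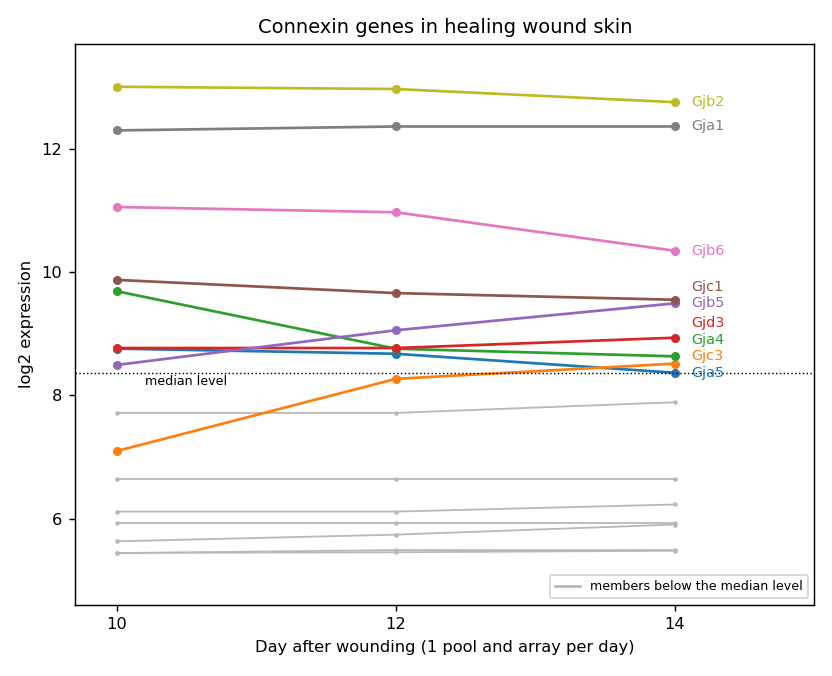
Log2 expression (vertical axis) of the 16 connexin genes on day 10, 12 and 14 after wounding (horizontal axis), 1 pool of 3 mice per point. Coloured lines are the 9 genes reaching the median level of 8.36 (dotted line), among which Gjc3 and Gjb5 slope upward and Gja4 and Gjb6 downward, and grey lines are the 7 genes below it.

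The connexins of keratinocytes did not move together. Gjb2 encodes Cx26, which is scarce in resting hairy skin and abundant in keratinocytes at wound edges. It was at 13.01 on day 10, 12.97 on day 12 and 12.76 on day 14, a difference of −0.25 over the whole span. Gjb6 encodes Cx30, a close relative that can form mixed channels with Cx26. Its values were 11.05, 10.97 and 10.34, so that day 10 and day 12 were close and day 14 stood lower. Gjb6 differed by −0.09 over the first interval and by −0.62 over the second interval. It was the 1 connexin at least 1.5-fold lower in the second interval, at 1.54-fold.

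Gjb5 encodes Cx31.1, a connexin of stratified epithelia. It was at 8.49 on day 10, 9.05 on day 12 and 9.49 on day 14, higher on each later day by 0.56 and 0.44. The difference over the whole span was 0.9994 log2 units, just short of 2-fold, and it passed 2-fold under each of 3 other scalings of the arrays. Gja1 encodes Cx43, which is found in keratinocytes, fibroblasts and many other cells and is studied as a target in wound repair. Its values were 12.30, 12.36 and 12.36, a difference of 0.06 over the whole span. Among the 4 keratinocyte connexin genes described here, Gjb5 was thus higher, Gjb6 lower, and Gja1 and Gjb2 inside the 95th percentile of the probe set gap over the whole span. Over the second interval, Gjb2 differed by −0.21, also inside it.

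The 4 markers of wound-edge keratinocytes, among them Krt16 and Krt6a, were lower on day 14 than on day 12, and their median difference over the whole span was −0.08. Their summed linear signal stood at 33324 on day 10, 33024 on day 12 and 31652 on day 14. Over the second interval these 4 markers differed by between −0.11 and −0.01, inside the 95th percentile of the probe set gap of 0.24. Gjb2 and Gjb6 were lower in the same interval, by larger amounts. Of all named genes reaching the level, 50.3% were lower and 24.9% higher in that interval. Whether the values of these markers, Gjb2 and Gjb6 are linked was not tested.

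The 3 connexins of blood vessels were lower on each later day. Gja4 encodes Cx37, which joins arterial endothelial cells. Its value stood at 9.69 on day 10, 8.75 on day 12 and 8.63 on day 14. A difference of −0.93 over the first interval put Gja4 at place 37 from the bottom among all named genes. Gja5 encodes Cx40, its partner in arterial endothelium, and was at 8.76, 8.67 and 8.36. Its larger difference came later than that of Gja4, with −0.31 over the second interval and −0.08 over the first interval. Gjc1 encodes Cx45, a connexin of smooth muscle and of the developing vessel wall, and was at 9.87, 9.66 and 9.55. Over the whole span, Gja4 was 2.08-fold, Gja5 1.31-fold and Gjc1 1.25-fold lower, and only Gja4 was beyond the 95th percentile of the probe set gap.

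Genes of endothelium and of contractile cells were lower on the same arrays. The 8 endothelial markers had the median difference of −0.50 over the whole span given above, and the lowest of them, at −0.70, was nearer to 0 than Gja4. All 6 markers of smooth muscle and myofibroblasts were lower on day 14 than on day 10, by unlike amounts, from −2.55 for Cnn1 to −0.04 for Myh11. Their median difference was −1.09, and their summed linear signal stood at 14965 on day 10, 8870 on day 12 and 7064 on day 14. What part these cells had in the values of Gja4, Gja5 and Gjc1 was not tested.

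Gjc3 had the largest difference of all 39 genes. It encodes Cx29, a connexin of myelinating glia including Schwann cells. Its value stood at 7.10 on day 10, 8.27 on day 12 and 8.51 on day 14. It was 2.25-fold higher on day 12 than on day 10 and 1.19-fold higher on day 14 than on day 12. Gjc3 reached the level only by its day 14 value. The 4 markers of Schwann cells and nerve that could be measured had a median difference of 0.60 over the whole span. Among them, Sox10, a transcription factor of Schwann cells and melanocytes, was at 7.48 on day 10, 7.84 on day 12 and 8.07 on day 14. Sox10 stayed below the level on each day. Mbp, a myelin protein gene, was at 8.17, 8.60 and 8.78, whereas Pmp22, which skin expresses widely, differed by −0.03. Egr2 had the largest difference of these 4 markers over the whole span, at 0.95. It was at 9.07 on day 10, 10.17 on day 12 and 10.02 on day 14, so it was lower over the second interval. Pmp22 had the highest value of the 4 on each day. The summed linear signal of these markers stood at 6739, 7329 and 7381. Their part in the Gjc3 value was not tested. Gjb1, encoding Cx32 of myelinating glia and liver, stood at 6.64 on all 3 days.

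Sebaceous and hair genes were also higher on the later days, although the dissection avoided follicles at the edge. All 6 sebaceous gland markers were higher over the whole span, with a median of 1.76, and their summed linear signal stood at 3200 on day 10, 10375 on day 12 and 10245 on day 14. All 7 hair shaft and inner root sheath markers were higher as well, with a median of 0.91 and sums of 1010, 1165 and 2120. The level was reached by 3 of the 7 hair markers and by 5 of the 6 sebaceous markers. Hair genes differed mainly over the second interval, with a median of 0.58, while sebaceous genes differed mainly over the first interval, with a median of 1.96. The part of these structures in the values of Cldn1, Gjb5 and Gjc3 was not tested.

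**Figure D3:**
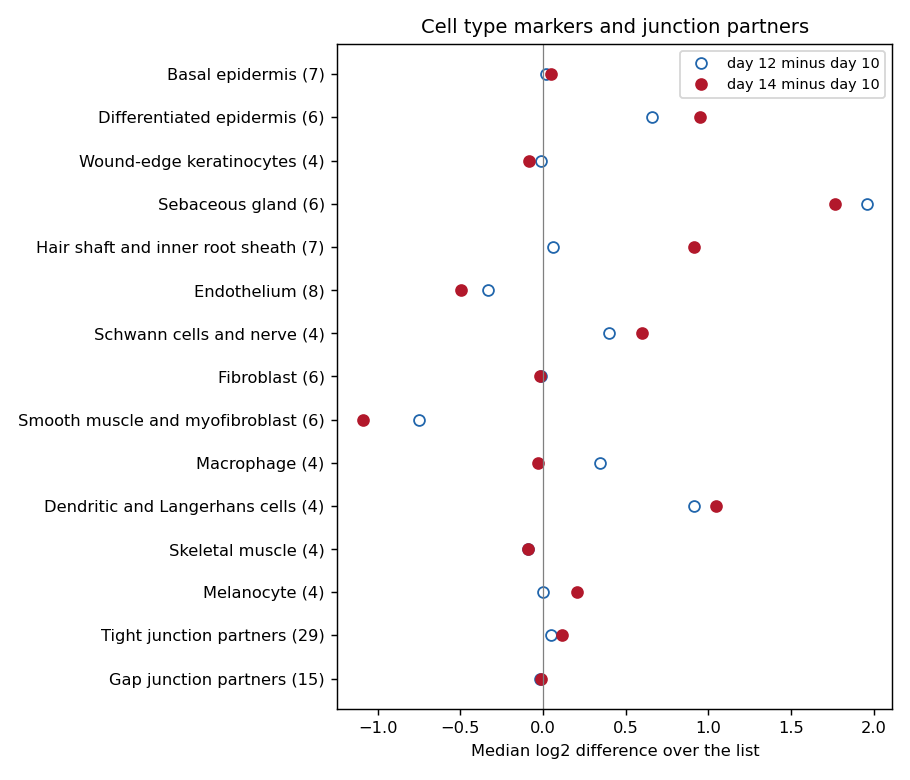
Median log2 difference (horizontal axis) over 13 marker lists and the partners of both junctions (rows, with the number of measured genes), for day 12 minus day 10 (open) and day 14 minus day 10 (filled), which share the day 10 array. Endothelium and smooth muscle lie left of 0, and differentiated epidermis, sebaceous gland and dendritic and Langerhans cells lie right of it.

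The other 7 connexins are best known from other tissues. Gjd3 reached the level. It encodes cx30.2, known from the mouse cardiac conduction system, and was at 8.77 on day 10, 8.77 on day 12 and 8.93 on day 14. Gja3, Gja6, Gja10, Gjd2, Gjd4 and Gje1 stayed below the level, together with Gjb1. The 7 low connexins had values between 5.44 and 7.89. Over the whole span, 5 of them were higher, 0 were lower and 2 were equal. Of all named genes below the level, 40.1% were higher, 17.5% lower and 42.4% equal. Gjd2, encoding the neuronal connexin cx36, had the largest difference among the 7 low connexins, at 0.27.

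Of 15 measured partners of gap junctions, 7 were higher and 8 lower over the whole span, with a median of −0.01. Ccn3 encodes a secreted matrix-associated protein that can bind Cx43. It was at 10.41 on day 10, 12.04 on day 12 and 12.06 on day 14, which is 3.09-fold higher on day 12 than on day 10. Ocln, which also belongs to the tight junction partners, was 1.85-fold higher on day 14 than on day 10 but stayed below the level. Calm3, encoding the calcium sensor calmodulin, was at 11.80, 11.53 and 11.44. The pannexin gene Panx1, which encodes a channel protein similar in shape to the connexins, differed by −0.20 over the whole span.

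**Figure D4:**
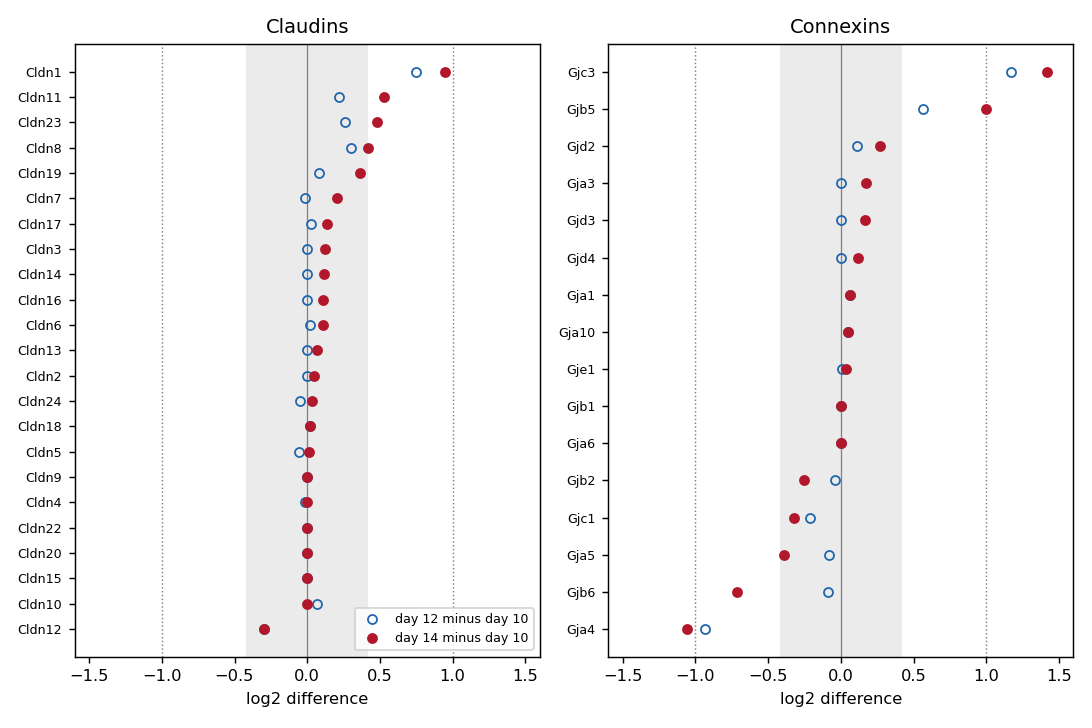
Log2 difference (horizontal axis) of each claudin (left) and connexin (right) for day 12 minus day 10 (open) and day 14 minus day 10 (filled), which share the day 10 array. The grey band is the 95th percentile of the probe set gap over the whole span, 0.41 on either side of 0, dotted lines mark 2-fold, and 4 claudins and 4 connexins have a filled point outside the band, as do 11.2% of all named genes.

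Beyond this band over the whole span lay Cldn1, Cldn8, Cldn11 and Cldn23, all higher, and the connexins Gjb5 and Gjc3, higher, and Gja4 and Gjb6, lower. These are 4 of 23 claudins and 4 of 16 connexins, beside 11.2% of all named genes. Over the first interval, 1 claudin (Cldn1) and 3 connexins (Gja4, Gjb5 and Gjc3) were beyond the percentile for that pair of days, beside 9.12% of all named genes. Over the second interval, 2 claudins (Cldn11 and Cldn19) and 4 connexins (Gja5, Gjb5, Gjb6 and Gjc3) were, beside 8.3% of all named genes. Gjb5 and Gjc3 were therefore beyond it in every pair of days, though Gjc3 only narrowly over the second interval, at 0.2472 against 0.2372. Under cyclic loess that Gjc3 difference was 0.2368, just below this cut. The mean level of Gjc3, 7.96, was also below the 8.25 required of the genes that gave the gap. The day 12 value lay strictly between those of day 10 and day 14 for 7 of 23 claudins, all 7 higher on day 14, and for 9 of 16 connexins, 4 higher and 5 lower. Among all named genes, 30.8% had their day 12 value strictly between the other two. By direction, 12.6% of all named genes were between and higher on day 14, and 18.1% between and lower.

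**Figure D5:**
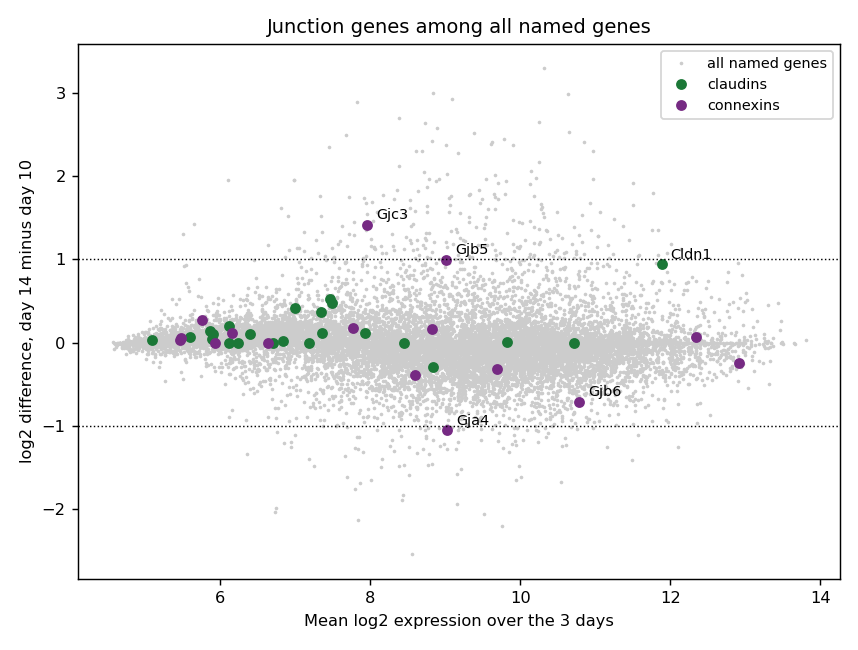
Log2 difference on day 14 minus day 10 (vertical axis) against the mean log2 expression over the 3 days (horizontal axis) for all 19938 named genes (grey), the 23 claudins (green) and the 16 connexins (purple). Dotted lines mark 2-fold, and the 5 labelled genes differ by at least 1.5-fold.

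Some of these genes are neighbours in the genome, by the gene order of the GRCm38.p6 assembly. Gja3, Gjb2 and Gjb6 follow one another on chromosome 14 and differed by 0.17, −0.25 and −0.71. On chromosome 16, Cldn1 is next to Cldn16, which differed by 0.11 where Cldn1 differed by 0.94. Cldn4 and Cldn3, adjacent on chromosome 5, differed by 0.00 and 0.12, and Cldn17 and Cldn8, adjacent on chromosome 16, by 0.14 and 0.42.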

How the data were processed

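Total RNA from 3 wound pools was measured on 3 arrays. The values are log2 expression per probe set as deposited by the authors. RMA and Partek 6.6 are listed, with no role given for either, per the submitters' processing notes. The log2 scale was inferred from the range, 4.37 to 14.1. No scanner output was used, so detection and signal over background are unknown, and the number of arrays limits precision. Groups came from the time in the labels.

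Of 35556 probe sets, 21789 had 1 gene symbol in the platform annotation, 1621 had several and 12146 were not listed. Probe sets with 1 symbol were averaged per symbol. All 39 members matched the RefSeq table by Entrez identifier and 0 symbols changed. The 5 Cldn34 symbols with further letters were not counted as members. Differences were counted at 2-fold and 1.5-fold beside all 19938 named genes. Members, lists and the marker genes were chosen with earlier results of these data known. Every member reaching the level or differing by 1.5-fold between any days is given by its values, and from each partner list the 3 genes with the largest difference between day 14 and day 10. Tjp1, Panx1, Esam, Pecam1 and the marker genes named beside a result are further examples. Summed linear signal is the sum of 2 to the power of the log2 values. The alternatives were 3 other scalings (median centring, quantile normalization and cyclic loess), the brightest probe set, a filter on the mean and the 1.5-fold size. Added after seeing the data were the removal of equal values and the inclusion of the Cldn34 symbols. Python 3.11.15, pandas 2.3.3, R 4.3.3 and limma 3.58.1 were used. The counting step was tested on simulated data.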

Additional observations from a re-analysis of the deposited data

How the results depend on the processing

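For the 14 genes named by level or size, no difference other than 0 changed sign under 3 other scalings or the brightest probe set per gene. Shifts were at most 0.05 log2 units over 168 comparisons. Differences of exactly 0 could take either sign. The Gjd3 difference over the first interval was −0.01 under median centring, −0.03 under quantile normalization and 0.01 under cyclic loess. The count of connexins at least 2-fold higher over the whole span was 1 as reported and 2 under median centring, quantile normalization and cyclic loess, because Gjb5 lay at the threshold. It was 0 under the filter on the mean level, which leaves out Gjc3, and the count over the first interval was 0 for the same reason. With the 1.5-fold size, claudins higher numbered 1 over the first interval and 1 over the whole span. Connexins higher over the whole span then numbered 2 and connexins lower 2, and connexins lower numbered 1 in each of the other pairs of days. Under the filter on the mean level, which keeps 8 connexins, their median turned to −0.12 over the second interval and to −0.29 over the whole span. The remaining counts and medians stayed within 1.5 times or within the spread between probe sets. Small claudin differences depended on scaling, with 17 higher and 6 lower over the whole span under quantile normalization, and the claudin median then was 0.07. No paired analysis was possible because each day has 1 array. Pools of 3 mice, single arrays and unknown detection limit every value, and genes below the median level most.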

Other observations

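Some probe sets carry several symbols and entered no comparison. Of these, 3 probe sets that share Gm2411, Cldn34c4 and Cldn34c1 differed by −0.66, −0.76 and −0.77 on day 14 against day 10, and which of these genes they measured is unknown. The probe set of Cldn34c4 alone was at 5.41 on all 3 days. A probe set shared by Dzip1 and Cldn10 differed by −0.21, where the pair of Cldn10 probe sets each differed by 0.00.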
